A study of Mus musculus with 14 samples.

Results

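Hspa5, Manf, Sdf2l1, Dnajb11 and Pdia3 encode proteins of the endoplasmic reticulum (ER), and they were followed here across the libraries of a mouse hippocampus RNA-seq study of low oxygen. These 5 genes were taken by symbol from a deposited table of 7756 genes, having been picked as genes of the unfolded protein response with a higher count under intermittent hypoxia (IH). The values that picked them are therefore those of the IH and control libraries, and the comparison of these groups is given as a description with no test. The study asked how IH, a mouse model of the repeated oxygen drops of obstructive sleep apnea, acts on the hippocampus compared with sustained hypoxia (SH). Male wild-type C57BL/6J mice, 8 weeks old at the start, were kept for 28 days. After that, by the paper's protocol, mice went through a Y-maze test and a passive avoidance test with an electric shock. Hippocampi were collected after these tests. The 5 IH mice breathed oxygen that swung between 10% and 21% in cycles of 2 min for 8 h per day, the 5 SH mice were held at a steady 10% for 8 h per day, and the 4 control mice stayed at 21%. Libraries were made from poly-A RNA of bulk hippocampal tissue, in which fewer cells of a type and less RNA per cell cannot be told apart. Control mice belonged to a preliminary experiment with the same strain, age and housing time, so a difference from control and a difference between experiments cannot be told apart. IH and SH mice were exposed in different chambers with different gas control systems, so the pattern of hypoxia and the chamber cannot be told apart either.

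The ER is where secreted and membrane proteins are folded, and the unfolded protein response is the program by which a cell adds folding capacity when unfolded protein builds up there. Its sensors are IRE1, which splices Xbp1 mRNA, ATF6, which is cut in the Golgi to release a transcription factor, and PERK, which slows translation and raises the factor ATF4. ATF6 and XBP1 act on chaperone genes through short promoter elements, and neurons and glia both use this program. Hspa5 encodes BiP, the HSP70 chaperone of the ER lumen, which binds unfolded protein and also holds the sensors inactive. Dnajb11 encodes ERdj3, a J-domain partner that brings substrates to BiP, and Sdf2l1 encodes a small protein that works in a complex with ERdj3. Manf encodes a secreted neurotrophic factor that binds BiP in the ER. Pdia3 encodes ERp57, a protein disulfide isomerase that works on glycoproteins with the lectin chaperones calnexin and calreticulin.

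By the GENCODE annotation of GRCm39, Hspa5 lies at chr2:34661982-34668880 on the plus strand and has 8 exons. Pdia3 lies on the same chromosome at chr2:121244149-121270339, plus strand, with 13 exons. Dnajb11 is at chr16:22676587-22698384 on the plus strand with 10 exons, and Sdf2l1 is at chr16:16948002-16950252 on the minus strand with 3 exons. Manf is at chr9:106715511-106769727 on the minus strand with 4 exons. Counts cover the genes as a whole. Hspa5 shares 5980 bases with Rabepk on the opposite strand, and Manf shares 42681 bases with Dcaf1 on the opposite strand and 6511 with Rbm15b on its own strand. Dnajb11 shares 15055 bases with the noncoding gene Gm30505 on the opposite strand, and Pdia3 shares 849 bases with Ell3, 948 with Catsper2 and 800 with Serinc4, also on the opposite strand. Manf also shares 1018 and 828 bases with the noncoding genes 4930524O07Rik and Gm37612. Sdf2l1 shares none with an annotated gene. The library kit keeps strand, but the strand setting of the counting is not given in the sources used here, so reads of such neighbours could be split. Rabepk had a log2 difference between IH and control of -0.20 (standard error 0.11), Dcaf1 of 0.25 (standard error 0.08) and Rbm15b of -0.17 (standard error 0.06). Each of these was smaller than that of its neighbour among the 5 genes, given below. Ell3, the neighbour of Pdia3 that is also in the deposited table, was not compared in this way. In SH against control Dcaf1 rose by 0.39 (adjusted p = 0.00470, edgeR), close to the value of Manf there.

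Promoters are shown because the unfolded protein response reaches chaperone genes through sequence elements near their starts. RefSeq promoters (GRCm38.p6, 250 bases before to 50 after the annotated start) were matched by symbol for 4 of the 5 genes, Hspa5, Sdf2l1, Dnajb11 and Pdia3. In the sequences, which run 5′ to 3′ on the strand of the gene and end at the base before the start, capitals mark CCAAT boxes read on either strand (CCAAT or ATTGG), and in Hspa5 also the whole of an ER stress response element. For Hspa5 all 250 bases before the start are printed, and for the others only the last 120. Hspa5 is chr2:34771840-34772089 (plus strand), Sdf2l1 is chr16:17132384-17132503 (minus strand), Dnajb11 is chr16:22857725-22857844 (plus strand) and Pdia3 is chr2:121413782-121413901 (plus strand).
Hspa5: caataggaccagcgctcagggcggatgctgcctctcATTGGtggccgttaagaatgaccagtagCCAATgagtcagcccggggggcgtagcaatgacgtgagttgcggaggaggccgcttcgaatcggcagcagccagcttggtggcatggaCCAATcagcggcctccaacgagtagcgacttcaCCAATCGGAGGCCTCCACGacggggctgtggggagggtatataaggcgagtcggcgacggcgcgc
Sdf2l1: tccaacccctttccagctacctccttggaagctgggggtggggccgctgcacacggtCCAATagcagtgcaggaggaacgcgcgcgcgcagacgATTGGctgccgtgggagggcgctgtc
Dnajb11: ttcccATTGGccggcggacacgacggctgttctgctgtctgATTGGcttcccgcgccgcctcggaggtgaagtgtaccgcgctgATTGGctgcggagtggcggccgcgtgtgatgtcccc
Pdia3: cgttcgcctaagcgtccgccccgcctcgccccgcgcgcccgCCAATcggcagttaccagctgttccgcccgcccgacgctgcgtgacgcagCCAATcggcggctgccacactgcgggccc

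The ER stress response element (ERSE) is CCAAT, 9 bases of any kind, then CCACG, and the related ERSE-II is ATTGG, 1 base of any kind, then CCACG. Both were searched on both strands, and each begins with a CCAAT box and so overlaps one. Hspa5 held an ERSE from base -65 to base -47 before the start, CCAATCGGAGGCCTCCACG, a match found in 39 of 32851 mouse promoters of this length (0.119%). Dnajb11 held an ERSE-II from base 8 to base 18 after the start, ATTGGCCCACG, found in 12 promoters (0.0365%). The core element of XBP1 and ATF6, TGACGTGG, was found in 222 promoters (0.676%) and in 0 of these 4. CCAAT boxes were counted after the promoters had been seen, over the same 300 bases, so some of them lie outside the printed stretches of Dnajb11 and Sdf2l1, as does the ERSE-II. Dnajb11 held 5 of them, a number reached by 0.271% of promoters. Hspa5 and Sdf2l1 each held 4, reached by 1.06%, and Pdia3 held 2, reached by 11.7%. A match is a run of letters and does not show that a factor binds there.

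**Figure D1:**
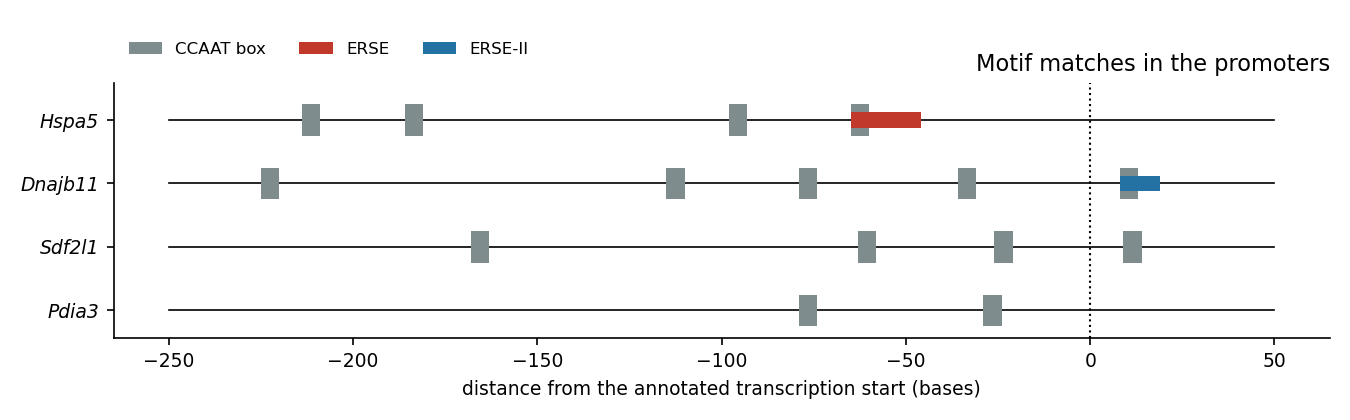
Motif matches in the promoters of 4 genes, one horizontal line per gene, against the distance in bases from the annotated transcription start (dotted line). Grey bars are CCAAT boxes on either strand, the red bar is the ERSE of Hspa5 just before the start and the blue bar is the ERSE-II of Dnajb11 just after it.

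The total count per library on the deposited genes was 8352355 to 11777100 in control, 7568082 to 10578074 in IH and 7203660 to 10480839 in SH. Normalized counts below are counts scaled by TMM to a library of mean size. Of the 7756 genes, 7338 averaged 40 counts or more in each of the 3 groups and were tested, and the 5 genes were among them. Markers of the choroid plexus, the epithelium beside the hippocampus that makes cerebrospinal fluid, varied most: their sum over 17 of 17 markers ran from 5305 to 131310 normalized counts over the control libraries, from 6250.8 to 80055 in IH and from 6802 to 97950 in SH. It was above 30000 in control 4, IH 1, IH 4, SH 1, SH 2 and SH 5. Markers of dentate gyrus granule cells (7 of 8 in the table) summed to 7498.3 to 9276.3 in control, 10295 to 15211 in IH and 9539.3 to 15418 in SH, higher in every hypoxia library than in every control library. The 5 erythrocyte genes summed to 2926 to 3189.3 in control, 1649 to 2304.3 in IH and 2202.7 to 3081 in SH. Sums overlapped between each pair of groups for pyramidal cells of CA1 and CA3 (9 of 10 in the table, 26658 to 34814 over the 14 libraries), oligodendrocytes (7 of 8, 70781 to 183870), endothelium and mural cells (8 of 8, 6873 to 9005), thalamus and striatum (11 of 11, 4872.6 to 7239.1) and astrocytes (2 of 7, 7847.4 to 12147). The 4 of 8 microglia markers in the table summed to 3835.6 to 4242.9 in control, 3661.5 to 4408.1 in IH and 3040.1 to 3795.7 in SH, and 0 of 5 plasma cell markers were in the table. What part these cell types had in the values below was not tested.

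Hspa5 had the highest mean level of the 5 genes per kilobase of transcript. In the 4 control libraries its normalized counts were 3803, 4601, 4933 and 4746. In the 5 IH libraries they were 9758, 7599, 9141, 7839 and 7667. The 5 SH libraries had 6704, 5634, 6061, 5005 and 6126. The 3 groups were separated, with the lowest IH library above the highest SH library and the lowest SH library, SH 4, just above the highest control library. The group means were 4521 ± 498 (SD, n = 4) for control, 8401 ± 986 (SD, n = 5) for IH, and 5906 ± 631 (SD, n = 5) for SH.

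Pdia3 had the next highest level per kilobase. Its normalized counts were 3016, 3371, 3316 and 3416 in control, and 5206, 4682, 5832, 4484 and 5040 in IH. In SH they were 3678, 3618, 3746, 3561 and 3782, a narrow band that began just above the control libraries and stayed far below the IH libraries. The means were 3280 ± 181 (SD, n = 4), 5049 ± 522 (SD, n = 5) and 3677 ± 90.5 (SD, n = 5), so the coefficient of variation was 5.51% in control, 10.3% in IH and 2.46% in SH.

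Dnajb11, the J-domain partner of BiP, had the lowest coefficient of variation of the 5 in control and IH. Control libraries held 986, 961, 958 and 921 normalized counts. IH libraries held 1356, 1301, 1399, 1353 and 1350, and SH libraries held 1111, 1061, 1091, 1125 and 1129. No library of one group reached into another. The means were 956 ± 27.1 (SD, n = 4), 1352 ± 34.8 (SD, n = 5) and 1103 ± 27.7 (SD, n = 5), with a coefficient of variation of 2.84%, 2.57% and 2.51%.

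Sdf2l1, whose product joins that of Dnajb11 in a complex, had the lowest level per kilobase and the highest coefficient of variation under hypoxia. Its control libraries held 143, 127, 154 and 146 normalized counts, its IH libraries 338, 259, 429, 236 and 375, and its SH libraries 282, 182, 233, 184 and 220. All hypoxia libraries were above the control libraries, but IH and SH overlapped, since SH 1 was above IH 2 and IH 4. The means were 142 ± 11.6 (SD, n = 4), 327 ± 80.2 (SD, n = 5) and 220 ± 41.2 (SD, n = 5), and the coefficient of variation was 8.13% in control, 24.5% in IH and 18.7% in SH.

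Manf, the secreted factor, had 581, 661, 756 and 706 normalized counts in control. It had 1222, 1014, 1255, 1061 and 1018 in IH, and 952, 810, 957, 805 and 982 in SH. Here too the 3 groups were separated, although the highest SH library and the lowest IH library were close. The means were 676 ± 74.5 (SD, n = 4), 1114 ± 116 (SD, n = 5) and 901 ± 86.5 (SD, n = 5).

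**Figure D2:**
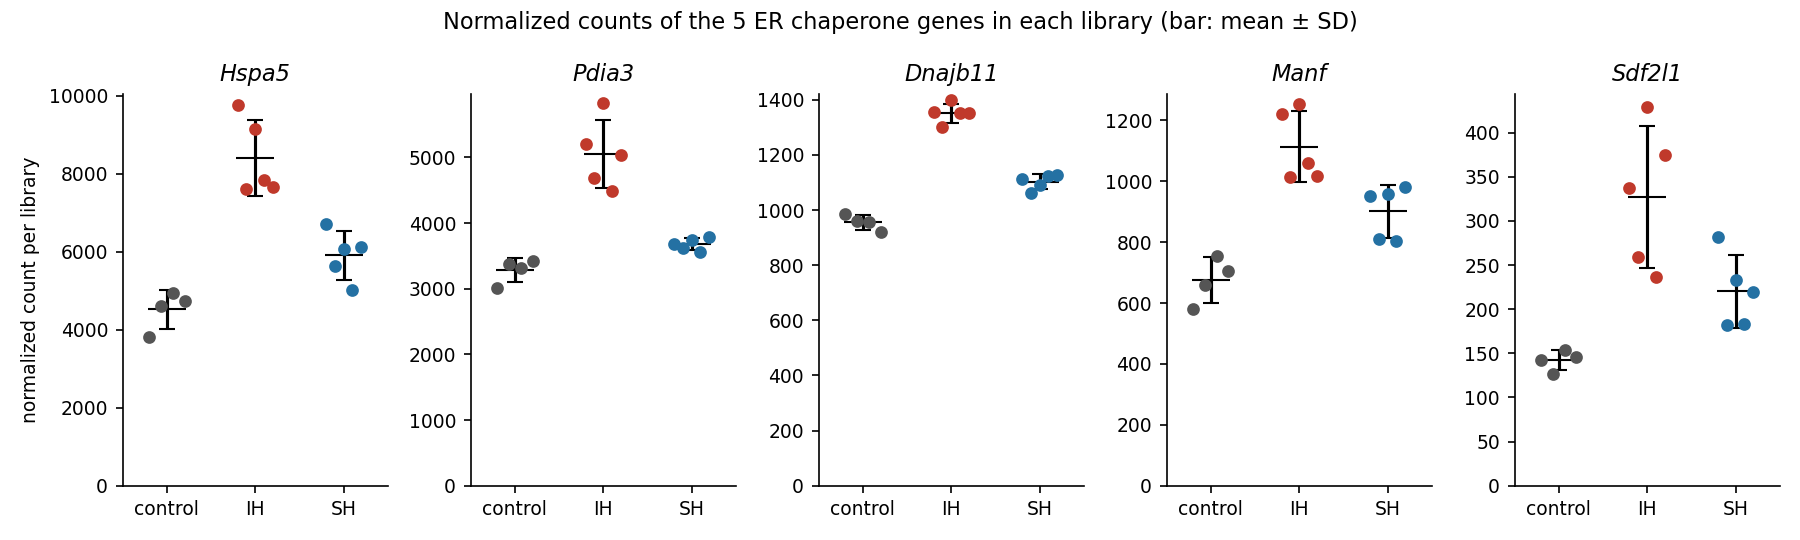
Normalized counts (vertical axis, from 0) of the 5 genes in the 4 control, 5 IH and 5 SH libraries. Points are libraries, and black bars are the group mean ± SD. IH is highest and control lowest in each panel, and IH and SH points overlap in the panel of Sdf2l1.

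Between genes, levels were compared per kilobase of the canonical transcript. This annotated length may differ from that of the transcripts expressed, which would change levels and orders per kilobase here and in the lists below. In control the order was Hspa5 (913 normalized counts per kilobase), Pdia3 (891), Dnajb11 (477), Manf (301) and Sdf2l1 (128). The first pair did not differ beyond its spread there, since the ratio of Pdia3 to Hspa5 ran from 0.905 to 1.07 over the control libraries. In IH the order of the means was the same, at 1696, 1372, 675, 496 and 294, and the ratio of Pdia3 to Hspa5 ran from 0.718 to 0.885. In SH the levels were 1192, 999, 551, 401 and 198. The ratio of Manf to Hspa5 was 0.330 ± 0.00984 (SD, n = 4) for control, 0.293 ± 0.0101 (SD, n = 5) for IH, and 0.337 ± 0.0204 (SD, n = 5) for SH, lower in each IH library than in each other library. The ratio of Dnajb11 to Hspa5 was 0.529, 0.402 and 0.466 in control, IH and SH, and that of Sdf2l1 to Hspa5 was 0.141, 0.173 and 0.165. Together the 5 genes made up 0.105% ± 0.00783 (SD, n = 4) of all deposited counts for control, 0.181% ± 0.0179 (SD, n = 5) for IH, and 0.132% ± 0.00835 (SD, n = 5) for SH.

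In the contrast that picked the genes, IH against control, fitted log2 fold changes ran from 0.50 for Dnajb11 to 1.20 for Sdf2l1. The fold was 2.30 for Sdf2l1 (log2 1.20, standard error 0.18), 1.86 for Hspa5 (log2 0.89, standard error 0.10), 1.65 for Manf (log2 0.72, standard error 0.10), 1.54 for Pdia3 (log2 0.62, standard error 0.07) and 1.41 for Dnajb11 (log2 0.50, standard error 0.05). By size of the log2 fold change they ranked 7, 26, 63, 117 and 267 of the 7338 genes tested, from the highest downwards. In 5 of 5 genes each IH library was above each control library, against 7.66% of all genes, and nothing is read from this count because it follows from the choice. Over all genes, edgeR called 6.08% higher and 4.85% lower in IH at an adjusted p under 0.05. Without the 6 libraries rich in choroid plexus markers the log2 fold changes were 0.87 for Hspa5, 0.72 for Manf, 1.33 for Sdf2l1, 0.48 for Dnajb11 and 0.68 for Pdia3. The paper also measured Hspa5, Manf and Sdf2l1 by RT-qPCR and reported no statistically significant effect of exposure on any of them. Their RT-qPCR means were lower in SH than in control, and in IH higher for Hspa5 and Manf and lower for Sdf2l1.

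SH libraries did not pick the genes, but the control libraries did, and picking genes that were higher in IH favours genes with low control values. The p-values of SH against control are therefore not independent of the choice, and neither they nor the count of calls support a rise under SH. At an adjusted p under 0.05, 4 of the 5 genes were called higher in SH, and over all genes 10.2% were called higher and 10.5% lower. Sdf2l1 was higher 1.55-fold (log2 0.63, standard error 0.18, adjusted p = 0.0230, edgeR), Manf 1.33-fold (log2 0.42, standard error 0.10, adjusted p = 0.00919, edgeR), Hspa5 1.31-fold (log2 0.39, standard error 0.10, adjusted p = 0.0154, edgeR) and Dnajb11 1.15-fold (log2 0.21, standard error 0.05, adjusted p = 0.0131, edgeR). Pdia3 was 1.12-fold higher (log2 0.17, standard error 0.07) and did not pass (adjusted p = 0.0976, edgeR). For each of the 5 genes no SH library overlapped the control libraries, against 8.76% of all genes with SH above control. The call of Hspa5 was lost without control 1 (log2 0.31, adjusted p = 0.0547, edgeR) and when trends with GC content and length were removed (log2 0.24, adjusted p = 0.182). That of Sdf2l1 was lost without control 1 (adjusted p = 0.0555, edgeR) or control 2 (adjusted p = 0.0691). Pdia3 passed without IH 3, which enters through the shared estimate of spread (adjusted p = 0.0452, edgeR), and its log2 value fell to 0.05 when GC content and length trends were removed (adjusted p = 0.71). Without the 6 libraries rich in choroid plexus markers, 3 control and 2 SH libraries were left and none of the 4 calls held, in a setting where 2 genes of the whole table were called higher and 24 lower (edgeR), at log2 0.31 for Hspa5, 0.39 for Manf, 0.55 for Sdf2l1 and 0.18 for Dnajb11 (adjusted p = 0.160 to 0.262, edgeR).

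Each gene also had a higher mean in IH than in SH. This is a description, since the IH libraries picked the genes, and it shares those libraries with the comparison against control. Hspa5 was 1.42-fold higher (log2 0.51, standard error 0.09), Sdf2l1 1.48-fold (log2 0.57, standard error 0.17), Pdia3 1.37-fold (log2 0.46, standard error 0.06), Manf 1.23-fold (log2 0.30, standard error 0.09) and Dnajb11 1.23-fold (log2 0.29, standard error 0.05). In 4 of the 5 genes each IH library was above each SH library, against 2.63% of all genes. Over all genes, 1.47% were called higher in IH than in SH and 0.899% lower. Without the libraries rich in choroid plexus markers the log2 differences were 0.57 for Hspa5, 0.78 for Sdf2l1, 0.52 for Pdia3, 0.32 for Manf and 0.30 for Dnajb11. For Manf the log2 difference between SH and control (0.42) was above that between IH and SH (0.30), whereas for Pdia3 it was 0.17 against 0.46, a contrast between the genes that was not tested.

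**Figure D3:**
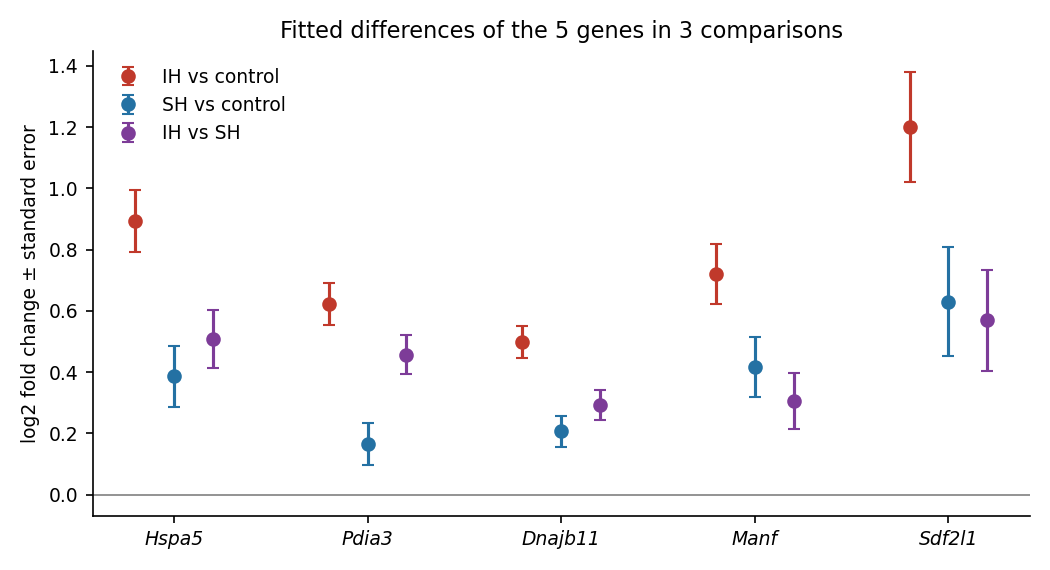
Fitted log2 fold changes (vertical axis) of the 5 genes in IH against control (red), SH against control (blue) and IH against SH (purple). Points are edgeR estimates and bars are their standard errors. The comparisons share libraries, and the red and purple values are descriptions.

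Deviations of a library from the mean of its group were not used in picking the genes, and they show which genes moved together from mouse to mouse. Hspa5 and Manf moved together most closely over the 14 libraries (Pearson r = 0.916, permutation p = 0.00045, adjusted over 10 pairs 0.0045, Spearman rho = 0.881, permutation p = 0.00065, adjusted 0.0065). Both were lowest in control 1 within their group and stood high in IH 1 and IH 3. Manf and Pdia3 also moved together (r = 0.719, permutation p = 0.00397, adjusted 0.0199, rho = 0.755, permutation p = 0.00627, adjusted 0.0314). Without the 2 libraries farthest from the median of the first gene, r was 0.877 for Hspa5 with Manf and 0.659 for Manf with Pdia3. Hspa5 with Pdia3 (r = 0.671, permutation p = 0.0135, adjusted 0.0395) and Sdf2l1 with Pdia3 (r = 0.708, permutation p = 0.0158, adjusted 0.0395) passed by Pearson's r and not by Spearman's rho (rho = 0.706 and 0.601, permutation p = 0.0156 and 0.0568, adjusted 0.0516 and 0.0947). Without 2 libraries the first fell to r = 0.614 and the second to r = 0.399, so the second rests on those libraries. Both lost their call under 80th percentile scaling (adjusted permutation p = 0.0613 for each) and library total scaling (adjusted permutation p = 0.0686 and 0.0937).

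The other 6 of the 10 pairs did not pass by either measure. Hspa5 with Sdf2l1 had r = 0.576 and Manf with Sdf2l1 had r = 0.594 (permutation p = 0.0528 and 0.0390, adjusted 0.0880 and 0.0780, rho = 0.626 and 0.657, permutation p = 0.0358 and 0.0206, adjusted 0.0716 and 0.0516). Dnajb11 was in the other 4 pairs, with r from 0.0116 with Hspa5 to 0.391 with Sdf2l1 (permutation p = 0.202 to 0.970, adjusted 0.288 to 0.970), and rho from 0.0989 to 0.332 (permutation p = 0.299 to 0.757, adjusted 0.427 to 0.757). Its within-group coefficient of variation was the smallest of the 5 genes in control and IH, at raw counts of 846 to 1586 per library. What part of this small spread was counting noise was not tested, so a low r does not show that Dnajb11 moved apart from the others. Without 2 libraries, r was 0.629 for Hspa5 with Sdf2l1 and 0.634 for Manf with Sdf2l1. For Dnajb11 it rose from 0.0116 to 0.467 with Hspa5 and from 0.177 to 0.599 with Manf. It fell to 0.311 with Sdf2l1 and to 0.0332 with Pdia3, so the low r of Dnajb11 with Hspa5 and Manf also rests on those libraries. The sign of r between Dnajb11 and Hspa5 turned under 2 other scalings, and removing GC content and length trends turned the sign of r of Dnajb11 with Hspa5, Manf and Pdia3.

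**Figure D4:**
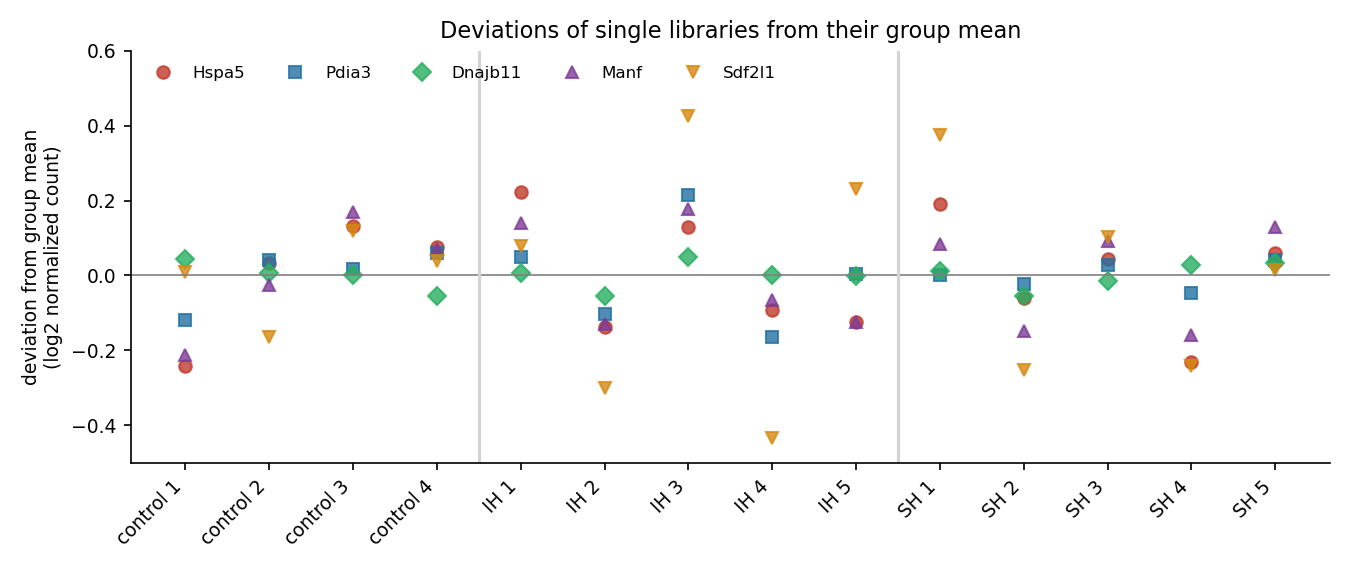
Deviation of each library from its group mean (vertical axis, log2 normalized count) for the 5 genes, with the 14 libraries along the horizontal axis in the order control, IH and SH. Hspa5 and Manf points lie close together in most libraries, and Dnajb11 points stay near 0.

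Over all 14 libraries, the genes whose pattern was most like the mean of the 5, each standardized, were Pdia6 (r = 0.962), Paqr8 (r = 0.958), Hsp90b1 (r = 0.958), Pdia4 (r = 0.957) and Hyou1 (r = 0.932), of 7333 genes ranked. These r hold the differences between groups as well as those between mice and are given as a description. Pdia6 and Pdia4 are disulfide isomerases, Hsp90b1 is the HSP90 of the ER and Hyou1 is a large HSP70 relative that serves BiP as a nucleotide exchange factor. Paqr8, a membrane progesterone receptor, was the one gene of these 5 outside the pathway lists, at 3735 ± 162 (SD, n = 4) normalized counts for control, 5001 ± 192 (SD, n = 5) for IH, and 4276 ± 188 (SD, n = 5) for SH. The median r was 0.342 over 56 other genes of the ER pathway and -0.0216 over all genes, and 11 of the 56 were among the 100 most alike. With group means removed the most alike were Rpl37 (r = 0.862), Lyz2 (r = 0.858), Csrnp1 (r = 0.857), Pdia6 (r = 0.854) and Psmb4 (r = 0.851), so Pdia6 alone stood in both sets. The median r of the pathway was then 0.208 against 0.0148 over all genes, and 4 of its genes were among the 100 most alike.

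The rest of the ER folding and stress pathway was taken from lists of 142 symbols, of which 56 genes were tested. These lists were drawn up with earlier results of these data known, so their counts, shares and p-values are descriptions and not separate support for a rise. In IH against control 19 were higher, 1 was lower and 36 did not pass, with a median log2 fold change of 0.20 against -0.02 over all genes. In SH against control 18 were higher, 7 lower and 31 not past the threshold, with a median of 0.17 against 0.0035. In IH against SH 8 were higher, 2 lower and 46 not past it, with a median of 0.08 against -0.0039. The 8 became 2 without IH 1, 3 without SH 4, 4 without control 2, IH 3, SH 3 or SH 5, 5 without IH 2, and 4 in a fit of IH and SH alone, which also left 1 of the 2 lower genes. In SH against control the 18 became 11 without control 2, and the 7 lower became 4 with GC content and length trends removed. Without the 6 libraries rich in choroid plexus markers 0 were lower in SH, while 24 genes of the whole table were called lower. The shares higher were 33.9%, 32.1% and 14.3% of the 56, beside the 6.08%, 10.2% and 1.47% of all genes given above. The 7 of 56 lower in SH are near the 10.5% of all genes called lower there. In the lists below, 1 gene called in SH among 10, 11 or 12 is near the share over all genes in either direction. The deposited table was chosen by its authors for genes that moved from control, which limits these shares to the table. Without the 6 libraries rich in choroid plexus markers the higher counts were 6, 0 and 0 (edgeR, with 22, 15 and 14 at an unadjusted p under 0.05), while only 26, 2 and 0 genes of the whole table were called higher, and the medians of the pathway were 0.16, 0.15 and 0.06. With GC content and length trends removed 12 were higher in IH against control and 8 in SH against control, and the medians were 0.12 and 0.07. Without SH 5 the median in IH against SH was 0.13. For each gene named below, a comparison that is not mentioned did not pass. Of 56 calls of named genes that were recomputed, 49 were lost without the 6 libraries rich in choroid plexus markers and 18 with the trends removed.

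Among luminal HSP70, HSP90 and J-domain proteins, 6 of the 8 tested were higher in IH than in control and 6 in SH, and 0 were lower (0 at an unadjusted p under 0.05 and 0 by DESeq2). Hsp90b1, the most abundant of the list at 2783 normalized counts per kilobase, rose by log2 0.63 in IH (standard error 0.08, adjusted p = 0.000306, edgeR) and 0.27 in SH (adjusted p = 0.0217), and was 0.36 higher in IH than in SH (adjusted p = 0.0145). Hyou1 rose by 0.50 in IH (adjusted p = 0.000548, edgeR) and 0.25 in SH (adjusted p = 0.0164), and was 0.25 higher in IH than in SH (adjusted p = 0.0483). The J-domain protein Dnajc3 rose by 0.53 in IH and 0.34 in SH, and Sec63, which assists transport into the ER, by 0.25 and 0.23 (adjusted p = 0.0013 to 0.0138, edgeR). Dnajb9, a partner of BiP that also restrains IRE1, rose by 0.27 in IH and 0.36 in SH (adjusted p = 0.0416 and 0.00677, edgeR), and Hspa13 by 0.30 and 0.33 (adjusted p = 0.0188 and 0.00735, edgeR). Between IH and SH only Hsp90b1 and Hyou1 passed in this list, and the call of Hyou1 held in only 4 of 24 alternatives. With GC content and length trends removed, Sec63 had 0.12 in IH and 0.07 in SH, and in SH Dnajb9 had 0.19, Hspa13 0.12 and Dnajc3 0.18, none of them called.

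Lectin chaperones and glycoprotein folding enzymes had 3 genes tested, of which 2 were higher in IH and the same 2 in SH than in control, and 0 between IH and SH (1 at an unadjusted p under 0.05, 0 by DESeq2). Calr, calreticulin, with which the product of Pdia3 works, was the most abundant gene of the list at 3630 normalized counts per kilobase. It rose by log2 0.58 in IH (standard error 0.08, adjusted p = 0.000548, edgeR) and 0.42 in SH (adjusted p = 0.00219). Uggt1, which senses misfolded glycoproteins, rose by 0.27 and 0.25 (adjusted p = 0.0211 in both, edgeR).

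Disulfide isomerases and oxidases, the family of Pdia3, had 12 genes tested. In IH 5 were higher and 0 lower than in control (0 at an unadjusted p under 0.05, 0 by DESeq2), in SH 4 were higher and 1 lower, and 2 were higher in IH than in SH. Pdia4 rose by log2 0.72 in IH (adjusted p = 0.000548, edgeR) and 0.30 in SH (adjusted p = 0.0379), and was 0.43 higher in IH than in SH (adjusted p = 0.0220). Pdia6 rose by 0.59 in IH (adjusted p = 0.00137, edgeR) and was 0.36 higher in IH than in SH (adjusted p = 0.0345). Creld2, a secreted ER stress protein, rose by 0.89 in IH and 0.49 in SH (adjusted p = 0.00316 and 0.0373, edgeR). Tmx3 rose by 0.36 and 0.37 (adjusted p = 0.0105 and 0.00554, edgeR) and Tmx1 by 0.26 in SH (adjusted p = 0.0234), whereas Erp29 fell in SH (log2 -0.29, adjusted p = 0.00811, edgeR). Tmx4, with the highest level of the list per kilobase (925 normalized counts), did not pass in IH against control (log2 0.14, adjusted p = 0.195, edgeR). With GC content and length trends removed, Tmx3 had 0.09 in each comparison with control and Tmx1 0.08 in SH, and without the libraries rich in choroid plexus markers Creld2 had 0.15 in SH, none of them called. The call of Pdia6 between IH and SH held in 15 of 24 alternatives, and in SH against control that of Creld2 held in 16 and that of Tmx1 in 18.

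Of the genes related to Manf and Sdf2l1 only Pomt2, a protein O-mannosyltransferase, was tested, at 125 normalized counts per kilobase. It did not pass in any comparison (log2 0.16 in IH and 0.17 in SH against control, edgeR, 0 at an unadjusted p under 0.05 and 0 by DESeq2). Of 8 prolyl isomerases of the ER 1 was in the table and 0 were tested.

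Among the 10 sensors and transcription factors of the response that were tested, 3 were higher in IH than in control, 3 were higher and 1 lower in SH, and 2 were higher and 1 lower in IH than in SH. Xbp1, the factor made by IRE1 splicing, rose by log2 0.37 in IH (standard error 0.09, adjusted p = 0.0147, edgeR) and was 0.35 higher in IH than in SH (adjusted p = 0.0346). Gene counts do not separate its spliced form. Nfya, a subunit of the factor that binds CCAAT boxes, rose by 0.40 in IH and 0.35 in SH (adjusted p = 0.0118 and 0.0142, edgeR), and Creb3l2 by 0.31 and 0.30 (adjusted p = 0.0377 and 0.0306, edgeR). Mbtps2, the protease that helps release ATF6, rose by 0.55 in SH (adjusted p = 0.00113, edgeR) and was lower in IH than in SH (log2 -0.35, adjusted p = 0.0380). Atf4, the most abundant of the list at 1201 normalized counts per kilobase, fell in SH (log2 -0.35, adjusted p = 0.00170, edgeR) and was 0.27 higher in IH than in SH (adjusted p = 0.0220). Of 24 alternatives, the calls of Creb3l2 held in 14 (IH) and 17 (SH), and between IH and SH that of Xbp1 held in 14 and that of Mbtps2 in 12.

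Targets of ATF6 and XBP1 in quality control and transport had 11 genes tested. In IH 3 were higher and 0 lower than in control (0 at an unadjusted p under 0.05, 0 by DESeq2), in SH 2 were higher and 2 lower, and 2 were higher in IH than in SH. Ssr3, of the translocon, with the highest level of the list per kilobase (935 normalized counts), rose by log2 0.47 in IH and 0.38 in SH (adjusted p = 0.000514 and 0.000896, edgeR). Spcs2 and Spcs3, of the signal peptidase, rose by 0.29 each in IH (adjusted p = 0.0128 and 0.0141, edgeR), and Spcs2 by 0.29 in SH (adjusted p = 0.00715). Kdelr1, a receptor that returns chaperones such as BiP to the ER, fell in SH (log2 -0.37, adjusted p = 0.00543, edgeR), as did Ssr2 (log2 -0.42, adjusted p = 0.00404). Kdelr1 and Kdelr2 were higher in IH than in SH by 0.37 and 0.40 (adjusted p = 0.0167 and 0.0387, edgeR), and the call of Kdelr2 held in 12 of 24 alternatives. With GC content and length trends removed, Ssr3 had 0.30 in IH and 0.20 in SH and was still called, and Spcs3 had 0.11 in IH and was not.

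The branch of PERK and ATF4 had 11 genes tested. In IH 0 were higher than in control (1 at an unadjusted p under 0.05, 0 by DESeq2) and 1 was lower, and in SH 1 was higher and 3 were lower than in control. Cebpb, a transcription factor of stress and inflammation, was the one that fell in IH (log2 -1.91, standard error 0.18, adjusted p = 6.3e-05, edgeR), and it also was lower in IH than in SH (log2 -1.33, adjusted p = 0.000761). By RT-qPCR the paper reported no statistically significant effect of exposure on Cebpb. In SH Cebpb, Atf5 and Ppp1r15a, which restores translation after PERK has acted, fell by 0.58, 0.34 and 0.44 on the log2 scale, and Stc2 rose by 0.60 (adjusted p = 0.00713 to 0.0260, edgeR). Ddit4 had the highest level of the list per kilobase (465 normalized counts) and did not pass in IH (log2 -0.16, adjusted p = 0.432, edgeR). With GC content and length trends removed, Atf5 had -0.06 and Cebpb -0.14 in SH, and without the libraries rich in choroid plexus markers Cebpb had -0.35 in SH, none of them called. The call of Cebpb in SH against control held in 18 of 24 alternatives.

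Chaperones outside the ER were taken alongside. Of 11 cytosolic heat shock genes 5 were higher in IH than in control, 1 in SH and 2 in IH against SH, with median log2 differences of 0.37, -0.10 and 0.30. DESeq2 called 6 higher in IH against SH, and 8 had an unadjusted p under 0.05 by edgeR. The median in SH against control turned to 0.14 without control 4 and to 0.11 without the 6 libraries rich in choroid plexus markers. Hspb1, a small heat shock protein, rose by 0.92 in IH (adjusted p = 0.0252, edgeR) and was 1.08 higher in IH than in SH (adjusted p = 0.0231), and Hspb8 was 0.56 higher in IH than in SH (adjusted p = 0.0224). Cryab and Hsph1 rose by 0.71 and 0.39 in IH (adjusted p = 0.0102 and 0.0130, edgeR). Stip1, the most abundant per kilobase (1611 normalized counts), rose by 0.37, and the HSP90 partner Chordc1 by 0.53 in IH and 0.30 in SH (adjusted p = 0.00203 to 0.0230, edgeR). With GC content and length trends removed, Chordc1 had 0.27 in IH, still called, and 0.02 in SH, not called. The calls of Hspb1 and Hspb8 between IH and SH each held in 18 of 24 alternatives. Of 4 mitochondrial chaperones 0 passed in any of the 3 comparisons (edgeR, with at most 1 higher and 1 lower at an unadjusted p under 0.05 and 0 by DESeq2). Hspe1, their most abundant gene per kilobase (1382 normalized counts), had log2 0.21 in IH (adjusted p = 0.203, edgeR).

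**Figure D5:**
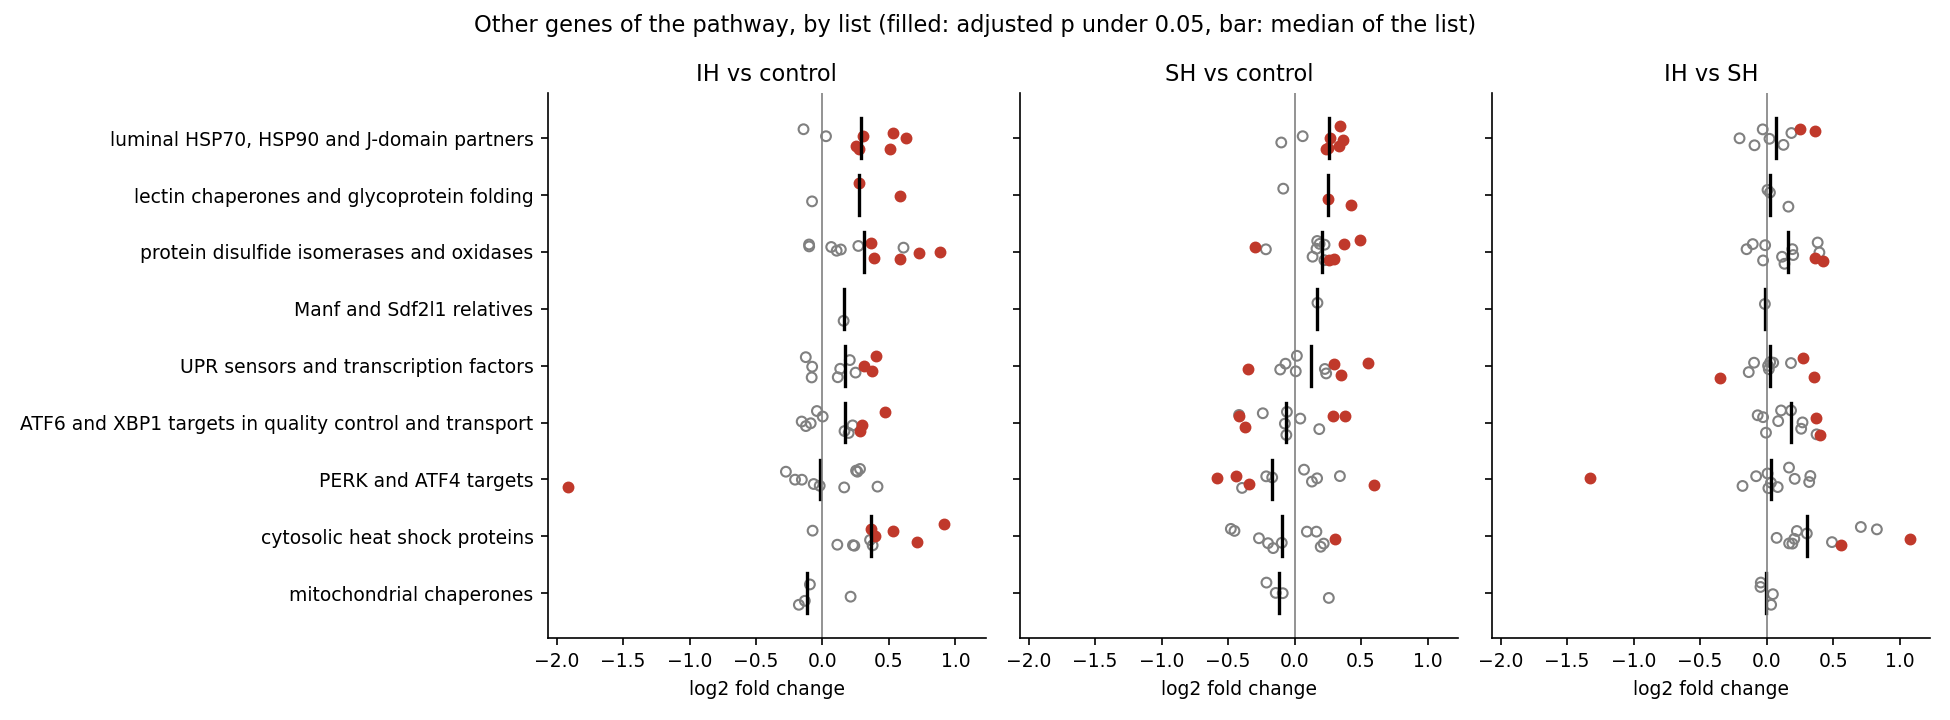
Log2 fold changes (horizontal axis) of the tested genes of each pathway list, the 5 genes left out, in IH against control, SH against control and IH against SH. Filled points passed an adjusted p under 0.05 (edgeR), open points did not, and black bars are list medians. The medians of the luminal and lectin chaperone lists lie to the right of 0 in both comparisons with control, and the median of the cytosolic heat shock proteins is 0.37 in IH and -0.10 in SH against control, the latter above 0 without control 4 or without the choroid plexus-rich libraries.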

How the data were processed

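Hippocampal RNA-seq libraries of 4 control, 5 IH and 5 SH mice were used, grouped by their labels. The authors processed reads with fastp 0.23.4, HISAT2 2.2.1 and StringTie 2.2.1 on GRCm39 and deposited 1 table of estimated counts per gene, not normalized between libraries. They kept protein-coding genes above 40 counts whose processed signal moved from control, so shares and adjusted p-values hold within that selection. For 10 genes some values had decimals, and these were rounded.

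The 7338 genes that averaged 40 counts or more in each group were fitted together over the 3 groups with edgeR 4.0.16 (TMM, quasi-likelihood test, R 4.3.3) and adjusted by Benjamini-Hochberg at 0.05. Standard errors are log2 fold changes divided by the square root of F. Correlations used log2(normalized count + 0.5) less the group mean, with 100000 permutations of libraries within groups.

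The 5 genes, the pathway lists and the marker lists were chosen with earlier results of these data known. Named pathway genes are the up to 4 with the smallest adjusted p in each list and comparison, the gene of each list with the highest count per kilobase, and the 5 most alike by each measure. Alternatives were DESeq2 1.42.0, library total or 80th percentile scaling, no filter, filterByExpr, a fit of only 2 groups, a replicate block, loess removal of GC content and length trends (span 0.5), a choroid plexus covariate, and leaving out each library. Leaving out libraries with over 30000 summed choroid plexus marker counts, and counting CCAAT boxes, were chosen after seeing the data. Symbols of 7707 genes matched GENCODE directly and 1 through a synonym, and 48 did not match.

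Replicate numbers were not treated as pairs, since the labels name no pairs. Of 13 same-numbered pairs, 6 had a correlation of deviations above 0.1 (range -0.304 to 0.457). Differently numbered pairs were not computed for comparison, so these values do not exclude pairing. No 2 libraries of a group were duplicates (chi-square per degree of freedom at least 8.96 over the 26 pairs within groups). The labels tell samples of a group apart only by number, so p-values measure the spread between these samples.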

Additional observations from a re-analysis of the deposited data

Results flagged for a closer look

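Among 132 groups of values of the 5 genes and the named pathway genes, 7 held a library far from the others by Dixon's test, and chance alone flags about 1 in 20. None of the 15 groups of the 5 genes was among them. Uggt1 had 1934 normalized counts in IH 1 against 1523 to 1590 in the other IH libraries, and 1677 in SH 5 against 1580 to 1606 in the other SH libraries. Creld2 had 268 in control 3, with the other control libraries at 212 to 218. Spcs2 in the same library had 1353 against 1161 to 1179. Erp29 had 1803 in IH 3 against 1503 to 1584. Creb3l2 was low in IH 2, at 468 against 569 to 597. Hspb1 had 229.6 in control 4, the library with the highest choroid plexus marker sum, against 112 to 127 in the other control libraries.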

How the results depend on the processing

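Fold changes and counts of called genes were recomputed under 24 alternatives and the correlations within groups under 3, while likeness, ratios and promoter counts were not recomputed. The IH against control and IH against SH values of the 5 genes kept their direction in all of them, for Hspa5 between 0.77 and 0.94 against control and for Sdf2l1 between 1.08 and 1.34. With SH against control, Hspa5 was not called when GC content and length trends were removed (log2 0.24) or without control 1 (0.31), with a range of 0.31 to 0.44 when each library was left out. Sdf2l1 was not called without control 1 (0.63) or control 2 (0.58), with a range of 0.52 to 0.69. Pdia3 was called only without IH 3 (0.16), with a range of 0.13 to 0.19 when each library was left out and a value of 0.05 with the trends removed. Without the 6 libraries rich in choroid plexus markers the calls of Hspa5 (0.31), Manf (0.39), Sdf2l1 (0.55) and Dnajb11 (0.18) were lost. That setting keeps 8 libraries, and beyond this the cause was not tested.

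Of the other ER pathway genes, removing the trends left 12 higher in IH against control, and 8 higher and 4 lower in SH against control. Without the choroid plexus-rich libraries 6 were higher in IH and 0 were higher or lower in SH (edgeR, 15 and 7 at an unadjusted p under 0.05), and 0 were higher or lower in IH against SH (14 and 2). A fit of IH and SH alone called 4 higher and 1 lower. With each library left out, the count higher was 13 to 19 in IH against control, 11 to 19 in SH against control (11 without control 2) and 2 to 7 in IH against SH (2 without IH 1, 3 without SH 4, 4 without control 2, IH 3, SH 3 or SH 5, 5 without IH 2), and the count lower in IH against SH was 1 to 2 (1 without control 1, control 3, IH 1, IH 2, IH 3, IH 5, SH 2, SH 3, SH 4 or SH 5). Of 56 named pathway gene results, 7 kept their call in every alternative and none reversed. Without the choroid plexus-rich libraries 49 of them lost their call, and with the trends removed 18 did.

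Under 80th percentile scaling, r was -0.11 for Hspa5 with Dnajb11, 0.642 for Hspa5 with Pdia3 and 0.690 for Sdf2l1 with Pdia3, and under library total scaling it was -0.0644, 0.663 and 0.667, so both pairs with Pdia3 were no longer past the threshold (adjusted permutation p = 0.0613 to 0.0937). With trends removed, r of Dnajb11 was -0.198 with Hspa5, -0.212 with Manf and -0.105 with Pdia3. The replicate number was also used as a block, although the labels name no pairs. Hspa5 in SH then had log2 0.39 (adjusted p = 0.0226, edgeR), and Manf, Sdf2l1 and Dnajb11 kept their calls. Pdia3 stayed uncalled, and 19, 17 and 7 pathway genes were higher in the 3 comparisons.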
